A study of Mus musculus with 8 samples.

Results

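The islet hormone genes described here are 9 genes taken by symbol: Ins1 and Ins2, the 2 insulin genes of the mouse; Iapp, which encodes the islet amyloid polypeptide released with insulin; Gcg, the glucagon gene; Sst, the somatostatin gene; Ppy and Pyy, which encode pancreatic polypeptide and peptide YY; Ucn3, which encodes urocortin 3; and Ttr, the gene of the carrier protein transthyretin. The rule that takes them is a list of names and uses no measured value, though the list was drawn up with earlier results of these data known. They were 9 of the 30406 gene IDs shared by all libraries. Their unique molecular identifiers (UMIs, each standing for 1 captured RNA molecule) were summed per library and cell class and given as a share of all UMIs of that class.

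The study sequenced single cells of dispersed mouse islets as 8 droplet libraries, 4 conditions in each of 2 replicates. For a replicate, islets of 10 male C57BL6/J mice aged 12 to 16 weeks were pooled and then divided over the conditions, so that all groups share strain, sex and age and a replicate is a pool, not a single animal. Islets were left untreated, or were exposed for 18 h to 10 U/mL interleukin-1β with 150 U/mL interferon-γ (cytokines), to the same cytokines with 2 mM NMMA (cytokines + NMMA), or to 2 mM NMMA (NMMA); NMMA blocks nitric oxide synthase. The question behind the comparisons is which changes of the cytokine-treated cells depend on nitric oxide. Library totals lay between 39056911 and 50731370 UMIs in replicate 1 and between 26549922 and 32406984 UMIs in replicate 2.

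Insulin from β-cells lowers blood glucose and glucagon from α-cells raises it, while somatostatin from δ-cells holds both back. Urocortin 3 is made by mature mouse β-cells and acts on neighbouring δ-cells, which answer with somatostatin. Pancreatic polypeptide and peptide YY are related peptides of PP-cells, and peptide YY is also made by other endocrine cells of the islet. The hormones are cut from longer precursors by enzymes of the secretory granule, and in β-cells transcription factors such as Mafa, Pdx1 and Neurod1 bind short elements just upstream of the insulin genes.

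Ins1 lies on chromosome 19 at chr19:52264297-52265476 on the plus strand, and Ins2 on chromosome 7 at chr7:142678656-142743381 on the minus strand, in a span that also covers read-through transcripts with a neighbouring gene (mm10, GENCODE annotation). Iapp lies at chr6:142298423-142303961 on the plus strand, and Gcg at chr2:62474530-62483650, Sst at chr16:23889573-23890958 and Ucn3 at chr13:3940688-3945349 on the minus strand. Ppy, at chr11:102099930-102101319, and Pyy, at chr11:102106676-102107832, are neighbours on the minus strand of chromosome 11. All 8 are protein-coding genes. The promoter windows of 4 of them are shown: Ins1 and Ucn3, called in β-cells, Iapp, called in α-cells, where its direction depends on which barcodes are counted, and Gcg, the leading gene of α-cells. Those of Sst and Pyy, called in δ-cells, and of Ppy are not shown, and their matches are given below. Each is the 250 bases before the RefSeq start, read 5′ to 3′ on the gene's strand (RefSeq, GRCm38.p6), with matches on either strand to the E-box letters CATCTG and to the homeodomain core TAAT in capitals; the insulin-gene factors named above belong in part to these factor classes. CATCTG was found in 14.4% and TAAT in 54.9% of 32851 windows of this length, so neither match marks a bound site.
Ins1, chr19:52264047-52264296, plus strand: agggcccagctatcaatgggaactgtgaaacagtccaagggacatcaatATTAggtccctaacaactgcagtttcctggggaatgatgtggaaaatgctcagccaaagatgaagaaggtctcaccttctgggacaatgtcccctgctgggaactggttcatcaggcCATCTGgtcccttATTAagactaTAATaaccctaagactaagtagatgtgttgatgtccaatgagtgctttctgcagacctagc
Ucn3, chr13:3945350-3945599, minus strand: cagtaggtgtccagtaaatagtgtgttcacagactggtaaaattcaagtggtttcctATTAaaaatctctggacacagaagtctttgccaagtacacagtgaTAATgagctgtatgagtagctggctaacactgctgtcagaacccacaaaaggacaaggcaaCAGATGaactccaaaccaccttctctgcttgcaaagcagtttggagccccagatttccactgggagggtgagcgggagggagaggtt
Iapp, chr6:142298175-142298424, plus strand: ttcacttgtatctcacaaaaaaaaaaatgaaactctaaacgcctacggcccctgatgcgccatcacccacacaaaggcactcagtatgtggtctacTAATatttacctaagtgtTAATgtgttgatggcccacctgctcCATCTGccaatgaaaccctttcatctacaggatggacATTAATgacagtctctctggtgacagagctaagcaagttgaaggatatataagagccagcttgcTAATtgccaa
Gcg, chr2:62483654-62483903, minus strand: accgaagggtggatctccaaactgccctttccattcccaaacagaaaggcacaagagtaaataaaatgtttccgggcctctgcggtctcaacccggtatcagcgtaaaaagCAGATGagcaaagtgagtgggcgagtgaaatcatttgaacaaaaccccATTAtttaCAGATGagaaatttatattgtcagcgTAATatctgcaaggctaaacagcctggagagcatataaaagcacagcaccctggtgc
The Ins1 window held 1 E-box match, 79 to 84 bases before the start, and 3 TAAT matches. The Ucn3 window held 1 E-box match, 82 to 87 bases before the start, and 2 TAAT matches, and the Iapp window 1 and 5, of which 2 TAAT matches overlap. The Gcg window held 2 of each. Of the windows not shown, those of Sst, Ppy and Pyy each held 0 E-box matches. The Sst window held 1 TAAT match and the Ppy and Pyy windows 0. These are descriptions of letters in a window, and no binding was measured.

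Of 17426 barcodes, 10876 passed the limits on detected genes and mitochondrial UMIs. Cells were clustered with the 9 hormone genes left out, so that the classes do not rest on the genes described. This gave 6238 β-cells, 641 α-cells, 327 δ-cells and 64 PP-cells; the PP class was taken from a second clustering of the non-β endocrine cells with the hormones in, and 51 of its cells also fell in a subcluster of 58 cells found without them. A further 1909 barcodes stayed unnamed and are in no class. Another 109 were first grouped with α- and δ-cells but led by β-cell markers on re-clustering, and were left out as mixed; 83 and 1 of them came from the untreated libraries of replicate 1 and 2, 24 and 1 from the NMMA libraries and 0 from any of the 4 libraries with cytokines. The β-cell libraries held a summed 1425 CPM (counts per 1e+06 UMIs) of the 9 β-cell marker genes (median, range 599 to 2487) beside 34.2 CPM of the 7 α-cell markers (range 20.2 to 46.5). The α-cell libraries held 1067 CPM of α-cell markers (range 463 to 1686, Gc the most abundant) and 2087 CPM of δ-cell markers (range 1418 to 2884), nearly all of it Rbp4, with the δ-cell marker Spock3 at 0 in all 8. The δ-cell libraries of at least 10 cells held 3284 CPM of δ-cell markers (range 1526 to 5800) and 235 CPM of α-cell markers (range 86.2 to 382). β-cell markers stood at 2487 and 2181 CPM in the untreated β-cells, at 645 and 599 CPM with cytokines, at 954 and 1076 CPM with cytokines + NMMA and at 1778 and 1773 CPM with NMMA, so the markers used to name the class were themselves lower with cytokines. Of the barcode sequences, 34 occurred in more than 1 library, 14 of them among kept cells and at most 5 for any pair of libraries.

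The classes were unevenly filled. β-cells numbered 1607 and 612 in the untreated libraries (replicate 1 and then replicate 2, as in all pairs below), 1128 and 551 with cytokines, 638 and 433 with cytokines + NMMA and 653 and 616 with NMMA. α-cells numbered 92 and 96, 47 and 70, 95 and 89, and 51 and 101 in the same order of conditions. δ-cells numbered 86 and 41 untreated, 9 and 12 with cytokines, 58 and 38 with cytokines + NMMA and 37 and 46 with NMMA. The cytokine library of replicate 1 was below the 10 cells set as a minimum, so the main tests of cytokine-treated δ-cells rest on 1 library of 12 cells. β-cells fell into 8 clusters that followed condition and replicate: clusters led by Slc2a2 and Mafa or by Glp1r held untreated and NMMA cells, clusters led by Lcn2, Il4i1, Cfb or Lrg1 held cytokine-exposed cells, and 2 clusters led by the heat-shock gene Hspa1a or Hspa1b held cells of all 4 conditions.

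Most UMIs of Ins1, Ins2, Iapp and Ucn3 lay in β-cells, those of Gcg in α-cells and those of Sst in δ-cells. Ins2 took a median 28.4% of all UMIs of β-cells (range 25.6 to 30.6, 8 libraries), Ins1 9.75% (range 7.19 to 13.0) and Iapp 4.44% (range 3.30 to 5.45). Gcg took 15.5% of the UMIs of α-cells (range 8.27 to 22.6) and Sst 4.86% of those of δ-cells. These shares count 3′-end tags, 1 per molecule, and need no correction for transcript length. In untreated β-cells the 9 genes together made up 47.9% and 44.5% of all UMIs, with cytokines 39.8% and 41.5%, with cytokines + NMMA 38.8% and 39.3%, and with NMMA 48.6% and 42.7%. The 4 cytokine-exposed libraries therefore lay below the 4 others. Of the kept UMIs of Ins1, a median 95.5% lay in β-cells (range 83.3 to 99.0), of those of Gcg 80.2% in α-cells (range 57.1 to 95.5), and of those of Sst 74.1% in δ-cells (range 42.2 to 93.0).

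**Figure D1:**
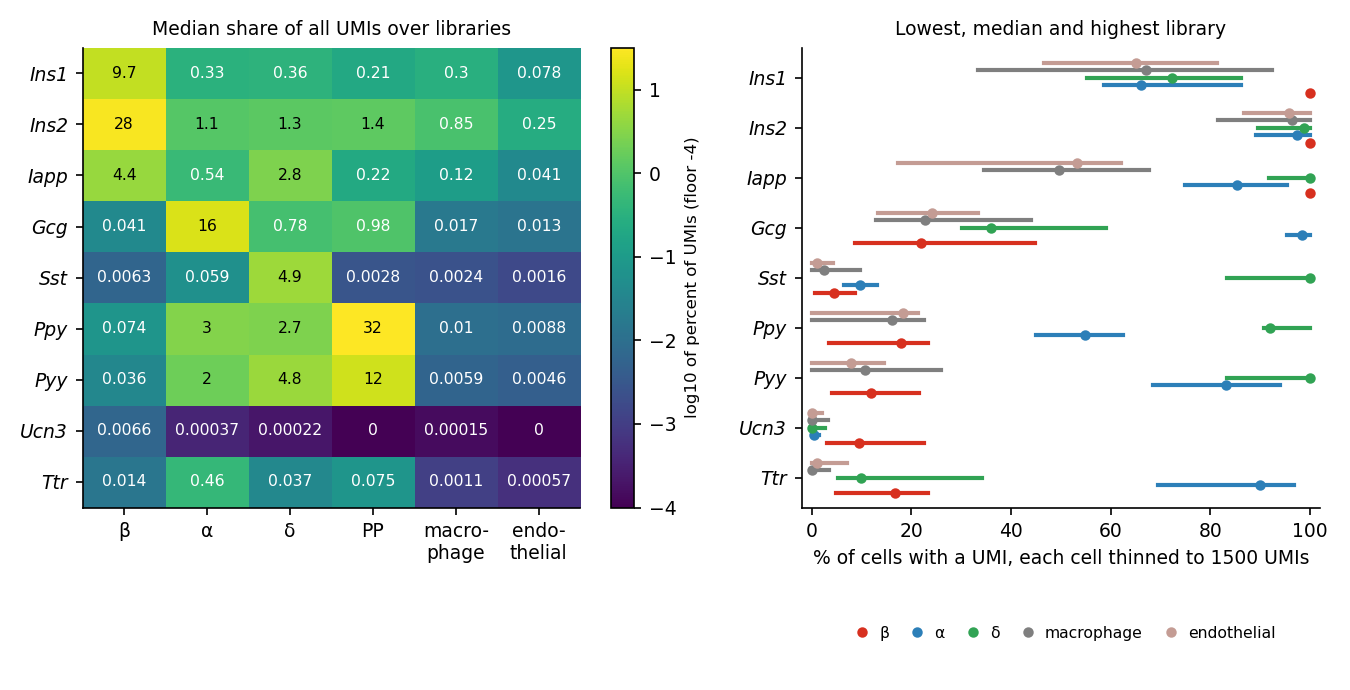
Left, median share of all UMIs (%, colour on a log10 scale with a floor of 0.0001%) for each hormone gene in 6 cell classes over the libraries that held the class; right, share of cells (%) with at least 1 UMI after each cell was thinned to 1500 UMIs, with a point at the median library and a line from the lowest to the highest. Ins2 and Ins1 lead β-cells, Gcg leads α-cells, Sst and Pyy lead δ-cells and Ppy leads PP-cells, while Ins2 is found in most macrophages and endothelial cells too.

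Hormone RNA was also found in barcodes of cell types that are not known to make islet hormones, in every library. Macrophages and endothelial cells, pooled as the measure of free RNA, carried a median 56.0 UMIs of Ins2 per barcode (range 21.5 to 188), 18.4 of Ins1, 9.32 of Iapp and 2.04 of Gcg, but 0.00588 of Ucn3 and 0.0882 of Ttr. The classes were not alike: endothelial barcodes held a median 31.4 Ins2 UMIs (range 21.9 to 43.0) and macrophages 82.6 (range 21.3 to 314). Of the macrophages 7.38% were scored as doublets and of the endothelial cells 1.75%. How the RNA came into these barcodes was not tested. Against 7254 Ins2 UMIs per β-cell the pooled level was 0.706% (median over libraries), a small part of the insulin level of β-cells. After thinning of each cell to 1500 UMIs, 21.9% of β-cells had a Gcg UMI (median of libraries, range 8.61 to 44.9) and so did 22.7% of macrophages (range 12.9 to 44.1). Median depths before thinning were 20546 to 29986 UMIs per β-cell and 8026 to 14977 per macrophage over the libraries, and the unthinned shares were 93.5% and 79.9%. Sst, Ppy and Pyy likewise had a UMI in 4.52%, 18.0% and 11.8% of β-cells against 2.56%, 16% and 10.6% of macrophages, so these shares of cells are not read as expression. The levels were not equal, however: β-cells held a median 9.65 Gcg UMIs per cell (range 4.53 to 125, the highest with cytokines in replicate 2), of which the pooled level was 14.4% (range 1.63 to 29.1), and for Sst, Ppy and Pyy it was 17.0%, 6.62% and 7.05%. The source of the remainder was not tested.

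In β-cells, cytokines lowered the RNA of Ins1 and Ucn3, with no call for Ins2 or Iapp. Ins1 took 12.7% and 11.5% of all UMIs of untreated β-cells, 7.19% and 7.76% with cytokines, 8.27% and 8.77% with cytokines + NMMA and 13.0% and 10.7% with NMMA. The 4 libraries with cytokines did not overlap with the 4 without. The fitted change was a log2 of -0.48 ± 0.16 (SE, n = 2 against 2 libraries; adjusted p = 0.0313, edgeR quasi-likelihood test with Benjamini-Hochberg adjustment over 12772 genes) with cytokines, 1.40-fold lower, and -0.50 ± 0.16 (adjusted p = 0.0475) with cytokines + NMMA. Of the 9 genes, 2 were called in β-cells exposed to cytokines, both lower, where 45.8% of all genes tested were called (23.6% higher, 22.3% lower), and 2 with cytokines + NMMA, both lower, where 22.7% were (12.9% higher, 9.81% lower). The Ins1 call was narrow: its adjusted p with cytokines was 0.185 without untreated replicate 1, 0.0618 without untreated replicate 2, 0.162 and 0.0899 without cytokine replicate 1 or 2 and 0.0586 without cytokines + NMMA replicate 2, at log2 changes between -0.58 and -0.37. With cytokines + NMMA the call was lost without any 1 of the untreated, cytokine or cytokines + NMMA libraries (adjusted p between 0.0723 and 0.262) and after the pooled macrophage and endothelial level was subtracted (0.0608), though not after the endothelial level alone was (0.0484).

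Ins2 took 29.6% and 28.8% of the UMIs of untreated β-cells, 27.2% and 29.5% with cytokines, 25.6% and 26.8% with cytokines + NMMA and 30.6% and 28.0% with NMMA. The cytokine library of replicate 1 lay below both untreated ones and that of replicate 2 between them. Those with cytokines + NMMA lay below all others. Its log2 change with cytokines was 0.17 ± 0.13 (adjusted p = 0.302), and the sign turned with the scaling, to -0.04 with total UMIs in place of trimmed-mean (TMM) factors and to -0.18 with totals that leave out the 9 genes. Those scalings moved the median log2 change of all genes from -0.0019 to -0.21 and -0.36, and Ins2 stood above the median gene under each of them. Iapp took 5.45% and 4.03% untreated, 5.34% and 3.30% with cytokines, 4.85% and 3.34% with cytokines + NMMA and 4.95% and 3.65% with NMMA; replicate 2 was the lower in every condition, and the change with cytokines was 0.07 ± 0.33 (adjusted p = 0.877).

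The ratio of the 2 insulin genes differed between conditions. Untreated β-cells held 2.34 and 2.50 Ins2 UMIs per Ins1 UMI, and NMMA-treated ones 2.35 and 2.61. The ratio was 3.09 and 3.06 with cytokines + NMMA and 3.78 and 3.81 with cytokines. Libraries with cytokines, those with cytokines + NMMA, and the others formed 3 sets that did not overlap. With 2 libraries against 2, an exact two-sided permutation test cannot go below p = 0.333, which was the value for cytokines against untreated and for cytokines against cytokines + NMMA. The 4 libraries with cytokines averaged 3.44 and the 4 without 2.45 (exact permutation p = 0.0286, the smallest this size allows, and 0.114 after adjustment over 4 tests), with all 4 higher than any of the others. This permutation also exchanges libraries between the 2 replicate pools, so it ignores that each pool was divided over the conditions. The ratio is free of library scaling. Of 1013 stretches of 50 bases of the Ins1 transcript, 7 (0.691%) also occur in that of Ins2, and of 429 of the Ins2 transcript, 7 (1.63%) occur in that of Ins1. These are exact matches over whole transcripts, whereas the libraries count 3′-end tags. How reads were assigned between the 2 genes was not tested. In macrophage barcodes the ratio was 2.47 and 2.72 untreated, 1.90 and 2.32 with NMMA, 3.54 and 3.54 with cytokines + NMMA and 3.98 and 4.29 with cytokines. In endothelial barcodes it was 2.90 and 2.89 untreated, 3.35 and 2.71 with NMMA, 3.09 and 4.13 with cytokines + NMMA and 3.64 and 4.30 with cytokines, where neighbouring conditions overlapped.

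**Figure D2:**
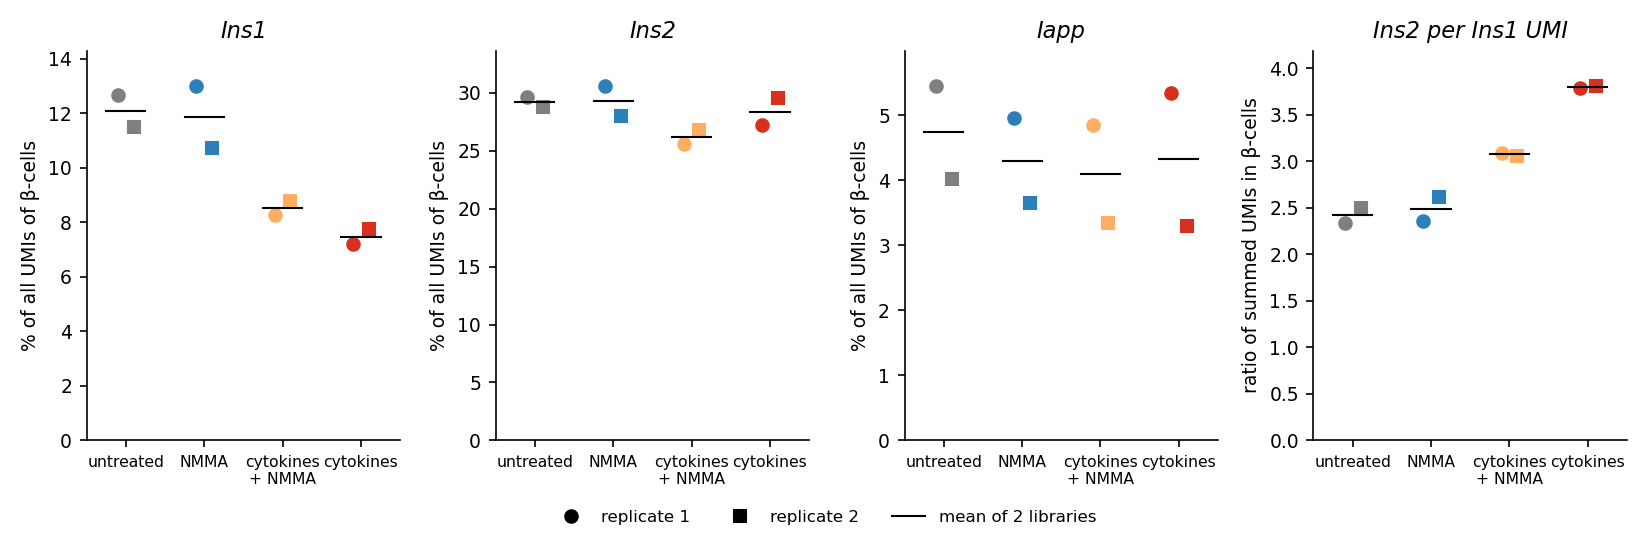
Share of all UMIs of β-cells (%) taken by Ins1, Ins2 and Iapp, and the ratio of Ins2 to Ins1 UMIs, in each library; circles are replicate 1, squares replicate 2 and lines the mean of the 2 libraries. Ins1 lies lower in all 4 cytokine-exposed libraries. Ins2 is lowest in the libraries with cytokines + NMMA and otherwise overlaps between conditions, and Iapp overlaps between all conditions. The ratio is 2.34 to 2.61 without cytokines, 3.06 and 3.09 with cytokines + NMMA and 3.78 and 3.81 with cytokines.

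Cells of a library also differed among themselves. The median untreated β-cell of replicate 1 gave 12.4% of its UMIs to Ins1, with 7.02% at the 10th and 17.0% at the 90th percentile, and the median cytokine-exposed one 6.35%, with 2.05% and 11.9%. The coefficient of variation of the Ins1 share was 0.323 and 0.453 in the untreated libraries and 0.558 and 0.528 with cytokines, against 0.236 and 0.343, and 0.341 and 0.363, for Ins2. Ins1 and Ins2 shares of single β-cells went together within every library (Pearson r 0.667 to 0.801 across cells, which share library and depth), whereas Iapp and Ins2 shares had r between -0.366 and 0.126.

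Between cytokines and cytokines + NMMA no hormone gene was called in β-cells by edgeR (0 of 9, with 1 at an unadjusted p under 0.05, Ins2, and 0 by DESeq2), where 19.2% of all genes were (8.91% higher, 10.3% lower). With the replicate pool as a block, 3 were called, each higher without NMMA: Ins2 by 0.32 ± 0.08 (adjusted p = 0.00576), Iapp by 0.27 ± 0.07 (adjusted p = 0.00683) and Ucn3 by 0.43 ± 0.15 (adjusted p = 0.0326). The block also added Iapp with cytokines + NMMA against untreated, at -0.21 ± 0.07 (adjusted p = 0.0252). The share of all genes called with the block is not reported here, so calls with it, in this and later paragraphs, have no baseline. NMMA given without cytokines left all 9 genes uncalled in β-cells, in edgeR (0 also at an unadjusted p under 0.05) and in DESeq2, as it did the other genes tested, of which 0% were called and 929 of 12772 had an unadjusted p under 0.05.

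Ucn3 showed the largest called change of the 9 genes in β-cells. It stood at 168 and 136 CPM in untreated β-cells, at 21.8 and 19.8 with cytokines, at 15.8 and 20.1 with cytokines + NMMA and at 127 and 110 with NMMA. The cytokine-exposed libraries lay far below all others and overlapped with each other whether or not NMMA was present. The log2 change was -2.66 ± 0.20 with cytokines (6.31-fold lower, adjusted p = 2.24e-05) and -3.08 ± 0.20 with cytokines + NMMA (8.48-fold lower, adjusted p = 1.37e-05), and both calls held without any 1 library. After thinning to 1500 UMIs, 22.6% (exact binomial 95% interval 20.5 to 24.7) and 18.2% (15.2 to 21.6) of untreated β-cells had a Ucn3 UMI, and with cytokines 3.20% (2.25 to 4.40) and 4.24% (2.71 to 6.30). With cytokines + NMMA the shares were 3.14% (1.93 to 4.82) and 3.48% (1.96 to 5.68), and with NMMA 14.9% (12.3 to 17.9) and 14.6% (11.9 to 17.6). The median macrophage library had 0% and the highest 3.23%, so the thinned share with cytokines was close to that of the highest background library; unthinned, 33.4% and 33.8% of cytokine-exposed β-cells had a Ucn3 UMI. The intervals cover counting error only.

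Ttr in β-cells stood at 200 and 173 CPM untreated, 39.7 and 111 with cytokines, 48.6 and 99.6 with cytokines + NMMA and 183 and 201 with NMMA. The 4 cytokine-exposed libraries were below the others, with the 2 replicates far apart. Its change with cytokines, -1.11 ± 0.55, did not pass the test (adjusted p = 0.155); with the cells scored as doublets left out it was -1.20 ± 0.39 (adjusted p = 0.0423) and, with cytokines + NMMA, -1.81 ± 0.40 (adjusted p = 0.0189). Ttr is most abundant in α-cells. The Gcg share of β-cells, a measure of α-cell RNA among them, was 0.0355% and 0.414% with cytokines, in the same order as Ttr, against 0.0436% and 0.0392% untreated, and its part in the result was not tested.

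**Figure D3:**
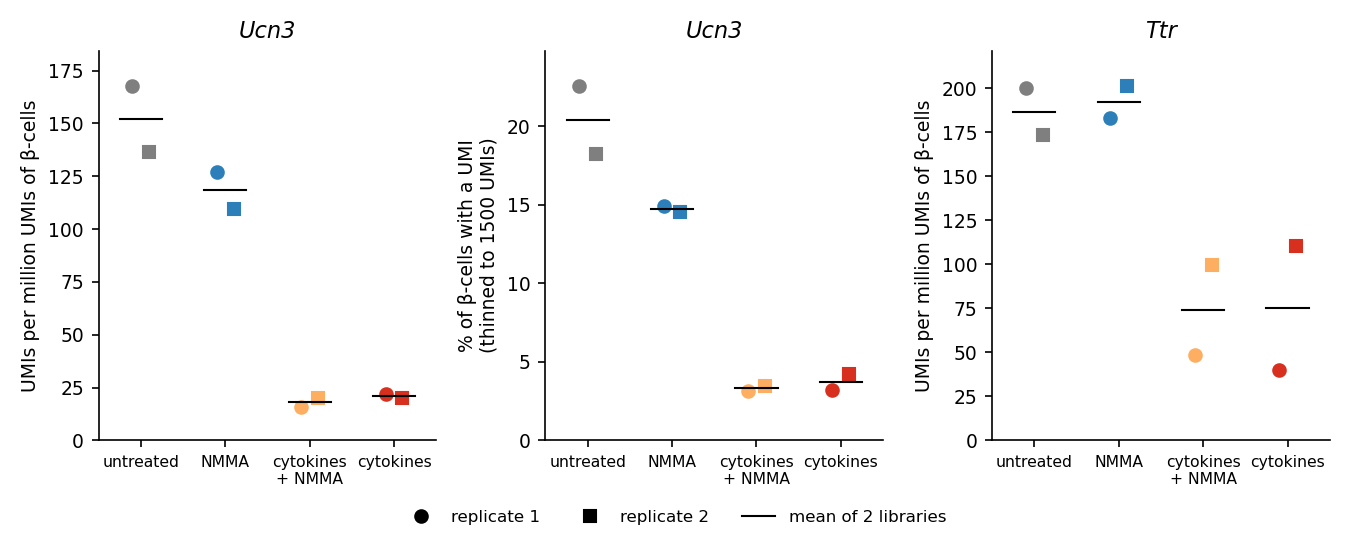
Ucn3 and Ttr in β-cells as CPM, and the share of β-cells (%) with a Ucn3 UMI after thinning to 1500 UMIs, per library; circles are replicate 1, squares replicate 2 and lines the mean. Ucn3 lies between 15.8 and 21.8 CPM in the 4 cytokine-exposed libraries and between 110 and 168 in the others, whereas the Ttr replicates are spread from 39.7 to 111 with cytokines.

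Of 16 genes on a list of insulin and β-cell gene regulators, 12 fell with cytokines in β-cells, 2 rose and 2 were not called, with a median log2 change of -1.13 beside -0.0019 for all genes tested, of which 22.3% were called lower and 23.6% higher. Mafa, which binds the insulin promoter, fell by 3.77 (± 0.22), Pdx1 by 2.59 (± 0.17), Nkx2-2 by 1.63 (± 0.14) and Mlxipl, a glucose-responsive factor, by 1.58 (± 0.38) on the log2 scale. With cytokines + NMMA, 8 fell and 3 rose, beside 9.81% and 12.9% of all genes, Mafa by a log2 of -2.61 ± 0.21 and Pdx1 by -1.39 ± 0.16. Between cytokines and cytokines + NMMA, Isl1 (-1.30 ± 0.13), Pdx1 (-1.20 ± 0.16) and Mafa (-1.15 ± 0.20) were lower without NMMA, beside Ins1 and Ins2, for which the same comparison gave 0.02 ± 0.16 and 0.32 ± 0.13. The lists of glucagon and somatostatin gene regulators, which share members with it, had 5 of 9 and 6 of 7 lower in β-cells and none higher. Of 12 prohormone processing genes and granins, 1 rose with cytokines, Cpe, which trims cut prohormones (0.67 ± 0.13), and 1 fell, Pcsk1, a convertase that cuts proinsulin (-1.07 ± 0.16). Of 9 hormone receptors tested, Gcgr (-1.73 ± 0.51) and Gipr (-1.13 ± 0.20) fell, a share close to the 22.3% of all genes called lower. Among 7 other islet peptides tested, Tac1 rose by 7.65 ± 1.06 and Gal by 2.52 ± 0.56, and Cartpt fell by 1.16 (± 0.29). These lists were put together with earlier results of these data known, and their counts are descriptions.

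In α-cells, Iapp was the 1 hormone gene called with cytokines, higher in the class as named and lower once left-out barcodes were counted in it. In the class as named it took 0.283% and 0.271% of all UMIs of untreated α-cells, 0.643% and 0.702% with cytokines, 1.12% and 1.22% with cytokines + NMMA and 0.312% and 0.434% with NMMA. The conditions with cytokines did not overlap with the others or with each other. The log2 change was 1.79 ± 0.21 with cytokines (3.45-fold higher, adjusted p = 9.77e-06) and 2.20 ± 0.21 with cytokines + NMMA (4.59-fold higher, adjusted p = 8.25e-07), and both calls held without any 1 library, without doublets (1.46 ± 0.24 and 1.90 ± 0.24) and after subtraction of the pooled macrophage and endothelial level (2.42 ± 0.20 and 2.82 ± 0.21) or of the endothelial level alone (1.94 ± 0.21 and 2.38 ± 0.22). They turned to -1.40 ± 0.26 (adjusted p = 0.00189) and -0.99 ± 0.26 (adjusted p = 0.0248) when the mixed barcodes, and the unnamed ones of a non-β endocrine cluster that scored highest for α-cell markers, were counted as α-cells, an alternative chosen after seeing the data. It lets in 83 and 49 barcodes of the untreated libraries, 27 and 119 of the NMMA libraries, 0 of either cytokine library and 0 and 3 with cytokines + NMMA. In the 4 libraries without cytokines these barcodes held a median 786 to 1381 Iapp and 3809 to 5584 Ins2 UMIs and 3 to 850 Gcg UMIs, where α-cells of the 8 libraries held a median 1778 to 3739 Gcg UMIs. They were set apart by β-cell markers, which were lower in cytokine-exposed β-cells, and the part of this in the Iapp result was not tested. Of the 8 genes tested, Iapp was the 1 called in each comparison, where 21.9% of all genes were called with cytokines (13.1% higher, 8.77% lower) and 8.18% with cytokines + NMMA (6.01% higher, 2.17% lower). The difference between cytokines and cytokines + NMMA, -0.41 ± 0.20, did not pass the test (adjusted p = 0.207). Nor did the difference between α- and β-cells in the change of Iapp with cytokines, 1.81 ± 0.46 (adjusted p = 0.102). Of the 9 genes, 1 passed that test, where 4.16% of all genes did; it was Ucn3, which met the count filter through β-cells alone and could not be tested in α-cells (0.0392 to 0.126 UMIs per α-cell), so the value restates its fall in β-cells.

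Single α-cells differed widely in Iapp. The median α-cell held 13 and 18 Iapp UMIs untreated, 26 and 32.5 with cytokines, 63 and 79 with cytokines + NMMA and 20 and 29 with NMMA. By this median cytokines + NMMA stood above all other libraries, whereas cytokines overlapped with NMMA. The mean was higher, at 37.5 and 51.5 untreated, 111 and 136 with cytokines, 201 and 266 with cytokines + NMMA and 51.7 and 66.6 with NMMA, and the 90th percentile was 81.5 and 131.5 untreated and 164 and 403.6 with cytokines. Endothelial barcodes held a mean 4.17 to 7.71 Iapp UMIs over the 8 libraries with no split by cytokines. Macrophages held 15.8 and 36.6 untreated and 20.5 and 55.1 with NMMA, but 5.30 and 6.06 with cytokines and 8.31 and 4.64 with cytokines + NMMA. The endothelial level was 16.7% and 11.6% of the mean Iapp level of untreated α-cells and 5.11% and 3.08% of it with cytokines.

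Insulin RNA in α-cells as named also stood higher by its mean with cytokines, without passing the test and, as for Iapp, with the sign turned once the left-out barcodes were counted in. For Ins2, α-cells held a mean 92.8 and 183 UMIs untreated, 384 and 594 with cytokines, 223 and 815 with cytokines + NMMA and 92.0 and 111 with NMMA. The median α-cell held 47 and 41 Ins2 UMIs untreated, 26 and 34.5 with cytokines, 38 and 37 with cytokines + NMMA and 50 and 46 with NMMA. By this median, in UMIs not scaled for depth, the cytokine-exposed libraries lay below the others, opposite to the mean. As a median share of the UMIs of a cell they overlapped, with 0.224% in cytokines + NMMA replicate 1 and 0.214% in untreated replicate 2. The medians in UMIs are close to the 21 to 36 of the median endothelial barcode, so the high means rest on a minority of barcodes. The Ins2 change, 2.16 ± 0.61, was not called (adjusted p = 0.0716), nor were that of Ins1, 1.84 ± 0.71 (adjusted p = 0.155), and that of Sst, 3.96 ± 1.59 (adjusted p = 0.173). With the mixed and unnamed barcodes counted as α-cells the values were -1.54 ± 0.64 for Ins2 (adjusted p = 0.159) and -1.97 ± 0.75 for Ins1 (adjusted p = 0.14). Sst took 0.0175% and 0.00993% of the UMIs of untreated α-cells and 0.0139% and 0.302% with cytokines. Its cytokine library of replicate 1 thus lay between the untreated ones and that of replicate 2 above both. Ins2 was called with the replicate block (2.19 ± 0.40, adjusted p = 0.019), and without doublets it was 1.76 ± 1.04 (adjusted p = 0.326). The 9 β-cell markers in α-cells summed to 677 and 495 CPM untreated, 197 and 168 CPM with cytokines, 199 and 258 CPM with cytokines + NMMA and 672 and 384 CPM with NMMA, Slc30a8 or G6pc2 the most abundant. They were thus lower with cytokines, as in β-cells themselves, while the mean insulin RNA of α-cells as named was higher; the part of β-cell RNA in the Iapp result was not tested.

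**Figure D4:**
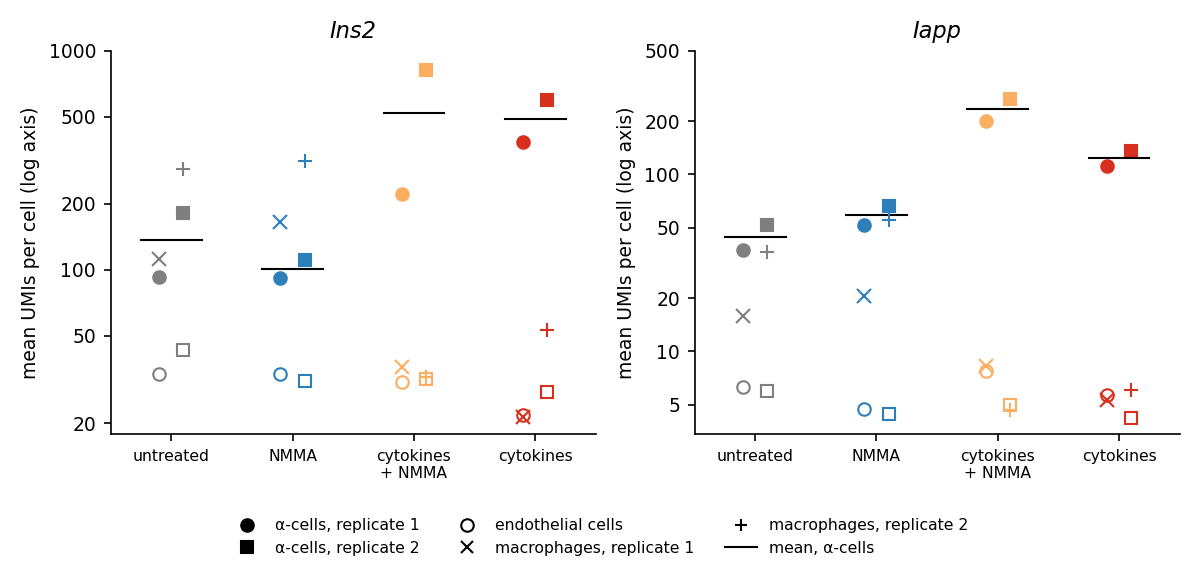
Mean UMIs per cell (log axis) of Ins2 and Iapp in α-cells (filled), endothelial cells (open) and macrophages (crosses) in each library; circles and diagonal crosses are replicate 1, squares and upright crosses replicate 2 and lines the mean of α-cells. Endothelial cells stay at 21.9 to 43.0 Ins2 and 4.17 to 7.71 Iapp UMIs in all 8 libraries, macrophages stand higher without cytokines than with them, and α-cells hold 111 to 266 Iapp UMIs with cytokines against 37.5 to 66.6 without.

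Gcg took 18.8% and 16.4% of the UMIs of untreated α-cells, 22.6% and 13.8% with cytokines, 14.7% and 8.27% with cytokines + NMMA and 20.2% and 14.1% with NMMA. Replicate 2 was lower in every condition, and within each replicate cytokines + NMMA was the lowest. Its changes did not pass the test without the block (0.58 ± 0.34, adjusted p = 0.27, with cytokines; -0.51 ± 0.34, adjusted p = 0.515, with cytokines + NMMA). With the block Gcg was called higher with cytokines (0.51 ± 0.17, adjusted p = 0.0179), lower with cytokines + NMMA (-0.57 ± 0.17, adjusted p = 0.0143) and higher with cytokines than with cytokines + NMMA (1.08 ± 0.17, adjusted p = 3.91e-06). The last comparison had 0 calls of 8 without the block in edgeR (1 at an unadjusted p under 0.05, Gcg), which called 10.7% of all genes (5.61% higher, 5.10% lower). DESeq2 called 1, Gcg, and its share of all genes is not reported here. Total-UMI scaling moved the median gene by -0.51 with cytokines, and the Gcg shares above, which are of that kind, overlap between untreated and cytokines.

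Ttr took 0.751% and 0.590% of the UMIs of untreated α-cells, 0.293% and 0.244% with cytokines, 0.466% and 0.172% with cytokines + NMMA and 0.779% and 0.450% with NMMA. The cytokine-exposed libraries were below the untreated ones in both replicates. The change, -0.80 ± 0.50 with cytokines (adjusted p = 0.324), was called with the block (-0.82 ± 0.18, adjusted p = 0.00155), as was that with cytokines + NMMA (-1.10 ± 0.18, adjusted p = 0.000132). In all, the block raised the calls in α-cells from 1 to 4 with cytokines (3 higher, 1 lower) and from 1 to 3 with cytokines + NMMA. The share of all genes that this fit called is not reported here, so the rise is not read as a result about the hormone genes. Ppy stood at 2.25% and 2.55% untreated and 3.56% and 3.73% with cytokines, and Pyy at 2.06% and 2.31% and at 1.39% and 1.37%. Neither was called (log2 changes 1.11 ± 0.72 and -0.16 ± 0.31). With PP-cells left in the class, Pyy was called lower with cytokines and with cytokines + NMMA. Over the alternatives run its log2 change reached -1.26 and -1.18 in these 2 comparisons. NMMA without cytokines called 0 of 8 genes and 0% of all genes in α-cells by edgeR, with Iapp at an unadjusted p of 0.0387 (0.45 ± 0.20).

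Of 10 glucagon gene regulators tested, 6 fell with cytokines in α-cells and none rose, with a median log2 change of -1.15 beside -0.028 for all genes, of which 8.77% were called lower and 13.1% higher. Irx2 fell by 1.59 (± 0.28) and Isl1 by 1.46 (± 0.20). Isl1 and Irx2 were also lower with cytokines than with cytokines + NMMA, at log2 differences of -1.21 ± 0.20 and -1.17 ± 0.28. Of the 12 processing genes and granins 4 rose with cytokines, Vgf (1.45 ± 0.28), Pcsk1n (1.01 ± 0.24), Scg5 (0.98 ± 0.22) and Cpe (0.98 ± 0.22), and none fell, again beside 13.1% and 8.77% of all genes. Of 7 receptors tested, Igf1r rose by 1.47 ± 0.30 and the somatostatin receptor gene Sstr2 fell by 2.39 (± 0.52).

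In δ-cells, Sst and Pyy fell with cytokines + NMMA, and the 1 cytokine library that could be tested was lower too. Sst took 7.50% and 5.85% of the UMIs of untreated δ-cells, 4.27% (9 cells) and 2.48% with cytokines, 3.43% and 3.44% with cytokines + NMMA and 9.38% and 5.46% with NMMA. Pyy took 6.10% and 7.37% untreated, 3.32% (9 cells) and 1.84% with cytokines, 2.76% and 3.44% with cytokines + NMMA and 7.08% and 6.45% with NMMA. For both genes the cytokine-exposed libraries did not overlap with the others. Against untreated, the log2 changes with cytokines + NMMA were -0.97 ± 0.28 for Sst (1.96-fold lower, adjusted p = 0.0252) and -1.15 ± 0.28 for Pyy (2.21-fold lower, adjusted p = 0.00686), and with cytokines -1.48 ± 0.37 (adjusted p = 0.0111) and -1.94 ± 0.37 (adjusted p = 0.000991). The cytokine values come from 1 library of 12 cells against 2. Their error assumes that this library varies like those of the other groups, so in this fit they have no replicate check. Both cytokine calls held once libraries of 5 cells or more were let in, an alternative chosen after seeing the data. It adds the cytokine library of 9 cells. The cytokine calls were lost in other settings: Sst without either untreated or either cytokines + NMMA library, and Pyy without untreated replicate 2. These were 2 of 8 genes tested in each comparison, both lower, where 9.75% of all genes were called with cytokines + NMMA (6.42% higher, 3.33% lower) and 7% with cytokines (4.53% higher, 2.47% lower). With cytokines + NMMA, both calls were lost without either untreated or either cytokines + NMMA library, with adjusted p between 0.0591 and 0.384; the Sst call was also lost with the 9 genes kept in the clustering (adjusted p = 0.105) and once libraries of 5 cells or more were let in (0.0572).

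Ppy in δ-cells took 2.80% and 5.69% untreated, 2.20% (9 cells) and 0.946% with cytokines, 1.86% and 3.14% with cytokines + NMMA and 2.61% and 3.24% with NMMA. Its change with cytokines, -2.26 ± 0.59, narrowly missed the threshold (adjusted p = 0.0516). Ins1 and Ins2 lay the other way in that library. Ins2 took 0.645% and 1.06% of the UMIs of untreated δ-cells, 1.55% (9 cells) and 5.99% with cytokines, 0.906% and 1.83% with cytokines + NMMA and 0.751% and 3.26% with NMMA. Ins1 took 0.160% and 0.440%, 0.351% (9 cells) and 2.86%, 0.20% and 0.376%, and 0.273% and 0.895% in the same order. The cytokine library of 12 cells was the highest for both, at log2 changes of 3.15 ± 1.23 for Ins1 (adjusted p = 0.31) and 2.73 ± 1.2 for Ins2 (adjusted p = 0.355). Insulin RNA, the mark of β-cells, thus stood high in the library behind the cytokine values of Sst and Pyy, whose 9 other β-cell markers summed to 176 CPM against 305 and 297 CPM untreated, with Slc2a2 and Trpm5 at 0; its part in those values was not tested. Iapp stood at 2.91% and 1.94% untreated, 3.17% (9 cells) and 1.5% with cytokines and 4.25% and 2.63% with cytokines + NMMA, with no call without the block. With the block, 7 of 8 genes were called with cytokines (5 lower, and Ins1 at 2.62 ± 0.23 and Ins2 at 2.07 ± 0.26 higher), 6 with cytokines + NMMA (1 higher, Ins2, and 5 lower) and 6 between cytokines and cytokines + NMMA (2 higher, 4 lower), where the fit without it called 0 (edgeR, 3 at an unadjusted p under 0.05; DESeq2 0) and 2.64% of all genes (1.51% higher, 1.14% lower); the block fit uses 7 libraries of 12 to 86 cells for 4 conditions and 2 replicates. NMMA without cytokines called 0 of 8 by edgeR, 0 also at an unadjusted p under 0.05, 0 by DESeq2 and 0% of all genes. Of the differences between δ- and β-cells in the change with cytokines, 1 was called (Gcg), where 2.74% of all genes were; its δ-cell arm with cytokines is the same 1 library. Hhex, the δ-cell transcription factor, fell by 1.13 (± 0.22) with cytokines + NMMA and Isl1 by 1.47 (± 0.22), 2 of the 7 somatostatin gene regulators tested, beside 3.33% of all genes called lower, and with cytokines, from the 1 library, 4 of 7 were called lower beside 2.47% of all genes, Isl1 by 2.90 (± 0.35) and Hhex by 1.86 (± 0.35). Ramp1, a receptor partner protein, fell by 1.70 (± 0.38) with cytokines + NMMA and Igf1r rose by 1.34 ± 0.23.

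**Figure D5:**
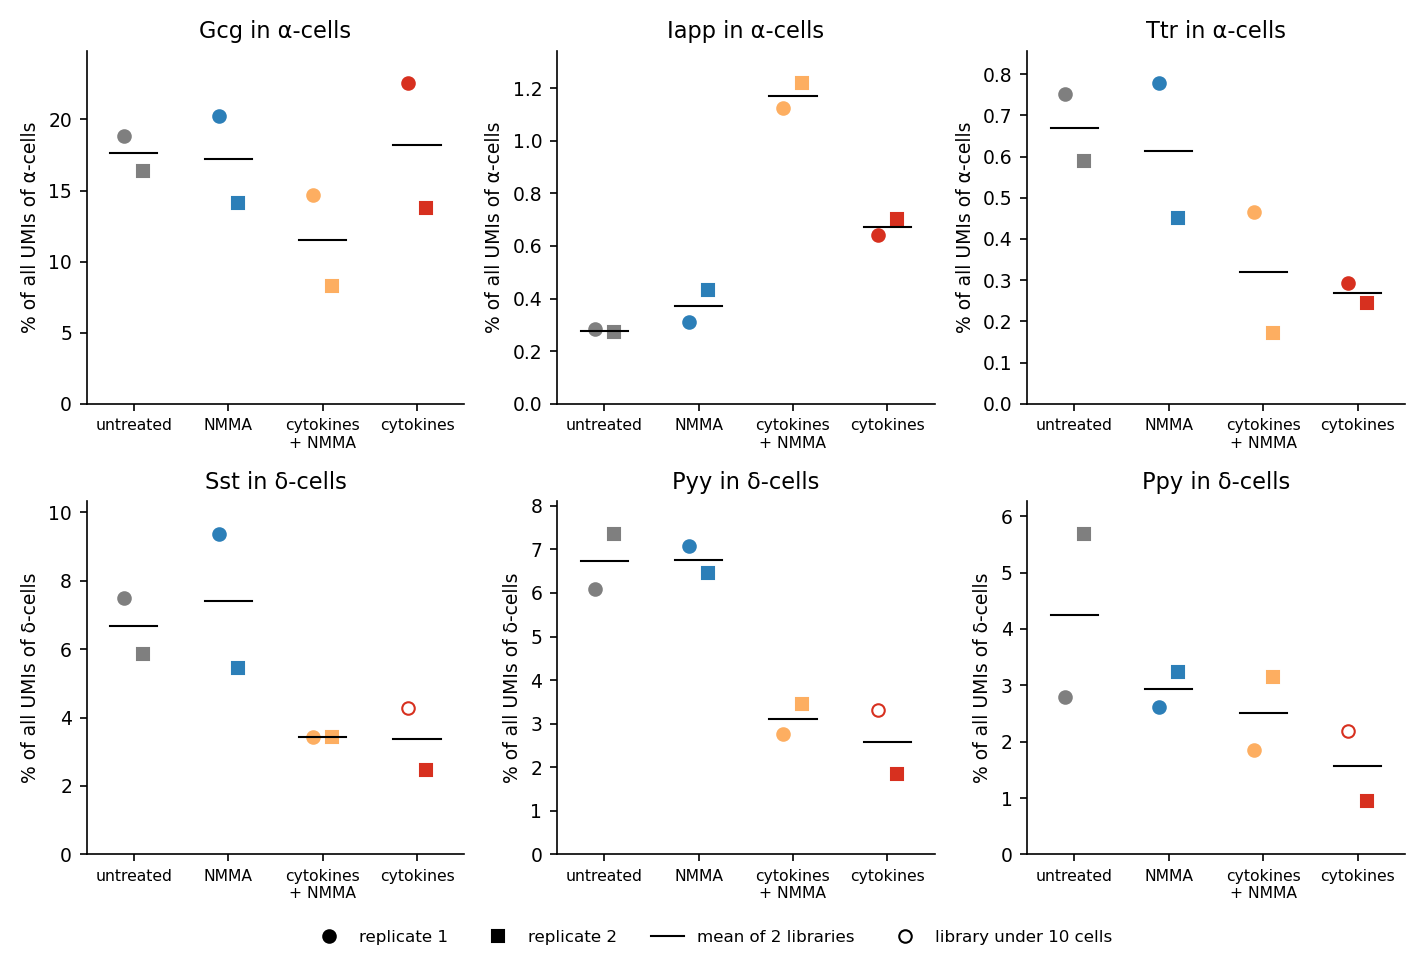
Share of all UMIs (%) taken by Gcg, Iapp and Ttr in α-cells and by Sst, Pyy and Ppy in δ-cells, per library. Circles are replicate 1, squares replicate 2 and lines the mean of the 2 libraries. An open symbol is a library of under 10 cells that the main tests did not use. Iapp in α-cells as named separates into 0.271% to 0.434% without cytokines and 0.643% to 1.22% with them, and Sst and Pyy in δ-cells lie lower in the cytokine-exposed libraries.

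Ppy took 31.4% and 33.3% of the UMIs of untreated PP-cells (30 and 13 cells) and 34.0% and 31.8% with NMMA (10 and 6 cells). The cytokine libraries held 0 and 2 PP-cells and those with cytokines + NMMA 1 and 2, too few for any comparison. The class was drawn with Ppy and Pyy in view, so these values describe it. Of the kept Ppy UMIs, 67.3% and 43.2% lay in α-cells with cytokines, against 10.2% and 20.1% untreated.

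Over whole libraries, all barcodes summed, 3 of the 9 genes were called with cytokines, all lower, where 37.7% of all genes were called (19.1% higher, 18.6% lower). Sst stood at 0.292% and 0.358% of all UMIs untreated, 0.0286% and 0.0918% with cytokines, 0.207% and 0.219% with cytokines + NMMA and 0.337% and 0.411% with NMMA. Only the cytokine libraries were that low, and they were also those with 9 and 12 δ-cells; in such sums fewer cells of a type and less RNA per cell cannot be told apart. The log2 change of Sst was -2.19 ± 0.46 (4.57-fold lower, adjusted p = 0.0115), that of Ucn3 -2.52 ± 0.25 (adjusted p = 0.000542) and that of Ttr -1.48 ± 0.35 (adjusted p = 0.0168, and 0.0757 without untreated replicate 2). The block added Pyy (-2.32 ± 0.39, adjusted p = 0.0155) and Iapp (0.20 ± 0.07, adjusted p = 0.0285). With cytokines + NMMA, Ucn3 was the 1 gene called (-3.20 ± 0.26, adjusted p = 0.000356), where 16.8% of all genes were (9.71% higher, 7.10% lower). Between cytokines and cytokines + NMMA edgeR called 0 of 9 (3 at an unadjusted p under 0.05), where it called 13.8% of all genes (6.48% higher, 7.28% lower). DESeq2 called 4 of the 9, and the block Ins2, Iapp and Ucn3. The shares of all genes called by DESeq2 and with the block are not reported here. NMMA without cytokines called 0 of 9 by edgeR (0 at an unadjusted p under 0.05) and by DESeq2, and 0% of all genes.

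The genes whose levels most resembled each hormone over 26 sums of β-, α-, δ- and PP-cells (Pearson r of log2(CPM + 1), 6638 genes compared, sums that share libraries) were mostly genes of the same class. Prss53 led for Ins1 and for Ins2 (r = 0.953 for each), at 202 CPM in β-cells and 11.8 in α-cells. For Ucn3 they were Prlr, the prolactin receptor gene (0.897), Kdm2b (0.881) and Slc2a2, the glucose transporter of the β-cell (0.867). Gpx3 led for Gcg (0.938), Irx2 for Ttr (0.929), Cd24a for Sst (0.946), Calb1 for Ppy (0.916) and Tspan8 for Pyy (0.948). B830017H08Rik led for Iapp (0.933), at 207 CPM in β-cells, 61.7 in δ-cells and 15.8 in α-cells.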

How the data were processed

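The 8 libraries were deposited as UMI counts per gene and barcode, raw whole-number counts that the authors made with Cell Ranger (3.0.0 for replicate 1, 6.0.0 for replicate 2) on mm10; the labels give kit v2 and the study's methods v3. Genes were joined by the 30406 shared IDs. Barcodes with at least 200 genes, at most 5500 (replicate 1) or 6500 (replicate 2) genes and at most 10% mitochondrial UMIs were kept. Cells were clustered without the 9 hormone genes (scanpy 1.11.5, leidenalg 0.10.2) and named from marker genes; doublets were scored and left out only as an alternative. Unnamed and mixed barcodes entered no class; counting some of them as α-cells, and subtracting the hormone level of endothelial barcodes alone, were alternatives added after seeing the data. Raw counts were summed per library and class, with at least 10 cells, and tested with edgeR 4.0.16 (R 4.3.3; TMM, low-count filter, quasi-likelihood test, Benjamini-Hochberg adjustment over all genes, threshold 0.05), 4 conditions in 1 fit; DESeq2 1.42.0 was an alternative. Fits were tested on simulated data, drawn without a pool effect. Set log2 changes of 1 were recovered for 26.5% of genes in β-cells and 17.2% in α-cells, and those of 2 for 92.7% and 76.8%. For the difference of α- from β-cells the values were 3% and 44%. A change that was not called can therefore still be present. A replicate is 1 pool of islets divided over the conditions, so the numbers pair the samples; deviations of same-numbered libraries correlated at 0.609 to 0.706 in β-cells, 0.264 to 0.441 in α-cells and 0.302 to 0.343 in δ-cells. The members and gene lists were chosen with earlier results of these data known. Named list genes were at most 4 per list past the threshold, by size of change, and some of these are not reported here; for likeness, the first gene or first 3. With 2 pools per group, the main p-values rest on the spread between libraries of a condition, which includes differences between pools, and they ignore the pairing. Those with the block take differences between the pools out of that spread.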

Additional observations from a re-analysis of the deposited data

Results flagged for a closer look

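For 2 genes the test of a difference between cell classes in the change with cytokines passed the threshold, and neither value shows by itself that the classes differ. For Ucn3 the α-cell minus the β-cell change was a log2 of 3.05 ± 0.75 (adjusted p = 0.00887, edgeR quasi-likelihood test, where 4.16% of all genes were called). Ucn3 stood at 0.0584 UMIs per α-cell (median over libraries) against 1.62 per β-cell, and macrophage and endothelial barcodes at 0 to 0.244 over the libraries. It met the count filter through β-cells alone and was left out of the tests within α-cells, so the value restates its fall in β-cells; without cytokines replicate 1 the call was lost (2.48, adjusted p = 0.289). For Gcg the change in δ-cells minus that in β-cells was -5.05 ± 0.89 (adjusted p = 0.0464, where 2.74% of all genes were called). Its δ-cell arm with cytokines is 1 library of 12 cells, assumed to vary like the other groups, and the β-cell Gcg level with cytokines was 9.22 and 125 UMIs per cell, far apart between replicates. The call was lost with total UMIs (adjusted p = 0.304), with no low-count filter (0.171), after the pooled macrophage and endothelial level was subtracted (0.270) and without NMMA replicate 1 (0.383) or 2 (0.416).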

How the results depend on the processing

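Counting the mixed and α-leaning unnamed barcodes as α-cells, an alternative chosen after seeing the data, turned the Iapp change in α-cells to -1.40 with cytokines and -0.99 with cytokines + NMMA, both called. It gave 2 calls with cytokines, both lower. The other was Ucn3, which could not be tested in α-cells as named. Besides Iapp, no called change turned its sign under any alternative run. Shares of all genes called under the alternatives are not reported here, so the counts below have no baseline beside them. The number of hormone genes called moved by more than 1.5 times as follows. With the replicate block it was 4 with cytokines, 3 with cytokines + NMMA and 1 between these in α-cells, 3 between them in β-cells, 7, 6 and 6 in δ-cells, and 5 with cytokines and 3 between cytokines and cytokines + NMMA in whole libraries. With no low-count filter it was 6, 5 and 4 in β-cells for the same 3 comparisons and 1 for NMMA, 2 between cytokines and cytokines + NMMA in δ-cells, 3 for the difference of α- from β-cells and 0 for that of δ- from β-cells. DESeq2 gave 4 with cytokines and 1 between cytokines and cytokines + NMMA in α-cells, 4 between them in whole libraries and 2 for the difference of δ- from β-cells. Total UMIs in place of TMM gave 1 between cytokines and cytokines + NMMA in α-cells and 0 for the difference of δ- from β-cells, and totals without the 9 genes gave 1 in α-cells. With the members kept in the clustering it was 2 with cytokines in α-cells, 1 with cytokines + NMMA in δ-cells and 2 for the difference of α- from β-cells. With PP-cells left in it was 2 with cytokines and 2 with cytokines + NMMA in α-cells, where Pyy, lower, was the added call. Subtracting the pooled macrophage and endothelial level gave 1 with cytokines + NMMA in β-cells and 2 for the difference of α- from β-cells. Letting in libraries of at least 5 δ-cells, an alternative chosen after seeing the data, gave 1 with cytokines + NMMA. With it the Sst and Pyy calls with cytokines in δ-cells held. Moves within 1.5 times included a rise from 2 to 3 calls in β-cells without doublets, with cytokines and with cytokines + NMMA, and with the block for the latter. The causes were not tested.

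Leaving out 1 library at a time gave 1 to 2 calls with cytokines and with cytokines + NMMA and 0 to 0 for the other comparisons in β-cells, 1 to 4 with cytokines and with cytokines + NMMA and 0 to 2 between them in α-cells, 0 to 2 with cytokines and with cytokines + NMMA and 0 to 1 between them in δ-cells, 2 to 5, 1 to 2 and 0 to 2 in whole libraries, and 1 to 4 and 3 to 6 for the differences of α- and δ- from β-cells. δ-cell values are limited by the 12 cells of the 1 cytokine library tested.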
